A study of Homo sapiens with 6 samples.

Results

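The baseline transcriptome described here is that of VCaP cells that received a non-targeting siRNA. It rests on 2 control arrays of the 6 in the series, chosen by their labels alone. VCaP is an established line of prostate cancer cells with a TMPRSS2/ERG fusion, which puts the ETS factor gene ERG under the regulatory region of the androgen-responsive gene TMPRSS2. The cells grew in DMEM with 10% FBS, were transfected, and gave total RNA 72 h later. The control group received the non-targeting siRNA, and the other groups received SOX9 siRNA A or SOX9 siRNA B, with 2 arrays in each of the 3 groups. All groups share the fusion, the medium and the transfection, so the control is a transfected culture and not an untouched one. The study is of SOX9 in prostate cancer, and its design compares each knockdown with these controls. The design text calls the arrays biological duplicates, and nothing more is said of separate cultures.

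Luminal cells of the prostate depend on androgen. The hormone binds the androgen receptor, which is held ready by heat shock protein chaperones and then acts at target genes together with pioneer factors such as FOXA1 and with lineage factors such as HOXB13 and GATA2. ETS factors bind sequences around a GGAA core, and ERG is normally at low levels in luminal cells. In canonical WNT signalling, a secreted ligand binds a Frizzled receptor with an LRP coreceptor, beta-catenin escapes its destruction complex, and TCF/LEF factors carry it to target genes.

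KLK2, a kallikrein protease gene and a classic androgen receptor target, had the highest signal of all 19775 genes with a probe set of their own, while the basal keratin gene KRT5 was not above background. Upstream sequences are shown for these and for KLK3, the neighbouring kallikrein gene that encodes prostate-specific antigen, and RPS19, the ribosomal protein gene with the highest signal. Each is the 200 bases before the first listed RefSeq start on GRCh38.p14, 5′ to 3′ on the gene's strand. KLK2 lies at chr19:50873239-50873438 (plus strand), KLK3 at chr19:50854715-50854914 (plus strand), RPS19 at chr19:41860055-41860254 (plus strand) and KRT5 at chr12:52520395-52520594 (minus strand). In the kallikrein genes capitals mark TATAAA or TGTTCT on either strand, the core letters of a TATA box and of an androgen response element half-site, and in RPS19 and KRT5 they mark CG dinucleotides.
KLK2: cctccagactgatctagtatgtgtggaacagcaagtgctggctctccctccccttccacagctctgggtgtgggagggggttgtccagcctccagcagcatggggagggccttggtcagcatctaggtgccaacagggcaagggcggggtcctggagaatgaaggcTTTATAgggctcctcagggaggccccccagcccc
KLK3: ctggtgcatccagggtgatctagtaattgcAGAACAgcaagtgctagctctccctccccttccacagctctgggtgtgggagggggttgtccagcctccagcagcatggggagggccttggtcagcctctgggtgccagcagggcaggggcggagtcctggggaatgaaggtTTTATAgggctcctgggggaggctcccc
RPS19: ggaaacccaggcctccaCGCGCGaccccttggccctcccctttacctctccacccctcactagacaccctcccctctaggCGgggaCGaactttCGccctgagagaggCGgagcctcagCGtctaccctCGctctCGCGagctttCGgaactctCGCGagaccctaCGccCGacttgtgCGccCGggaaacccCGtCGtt
KRT5: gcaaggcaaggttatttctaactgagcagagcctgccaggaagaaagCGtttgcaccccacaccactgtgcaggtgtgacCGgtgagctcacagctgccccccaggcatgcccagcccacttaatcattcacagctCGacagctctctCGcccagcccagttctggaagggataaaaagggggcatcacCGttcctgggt
The KLK2 and KLK3 windows were alike, with 176 of 206 aligned columns identical (85.4%). Both held TATAAA on the opposite strand, beginning 34 bases before the KLK2 start and 28 bases before the KLK3 start. The KLK3 window held TGTTCT on the opposite strand 170 bases before the start, and the KLK2 window did not hold these exact letters. Before the stretch gcaagtgct, which both windows share, KLK2 reads ggaaca where KLK3 reads AGAACA, so 1 letter differs. Near matches were not searched. Within 250 bases before the start, RPS19 had 23 CG dinucleotides, KLK2 had 2, KLK3 had 1 and KRT5 had 6. A match of letters is a description and not a binding site.

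A gene's level is the MAS5 signal of its probe set with the highest control mean. MAS5 is the Affymetrix method that turns the probes of a set into 1 signal on a linear scale. Probe sets differ in how well they bind, so the order of signals is not an order of RNA amounts, and each gene is to be read against background and against itself. The background level of an array was the 95th percentile over 79 probe sets of 54 genes expressed mainly in other tissues, 25.3 on control array 1 and 34.8 on control array 2. Bacterial probe sets for which no transcript is added reached 9.3 and 11.9. A gene was above background when at least 1 of its probe sets passed the level on both arrays, not above background when none passed on either, and mixed otherwise. By this rule 11321 genes (57.2%) were above background, 7292 (36.9%) were not, and 1162 were mixed. Any of a gene's sets could pass, and the share was 40.3% for genes with 1 probe set and 72.1% for genes with several. The list shares below were not matched for the number of probe sets. The control arrays had median signals of 23 and 25.8 over 54675 probe sets and 2%-trimmed means of 157 and 176, so array 2 was the brighter. The GAPDH 3′/5′ signal ratio was 1.05 and 1.04, against 1.10 to 1.19 on the siRNA arrays. That of ACTB was 3.07 and 3.15, against 2.91 to 3.79 on the siRNA arrays. With 2 arrays in the group, their number sets the precision.

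The highest signals came mostly from the translation machinery. KLK2 gave 15938 and 17513 on control arrays 1 and 2, a mean of 16725 ± 1113 (SD, n = 2). RPS19, of the small ribosomal subunit, gave 15573 and 17182. RPL7, of the large subunit, gave 15407 and 15942, and RPS6, the substrate of S6 kinase, gave 15181.5 and 15496. In the top 20, 15 genes encoded cytosolic ribosomal proteins: RPS19, RPL7, RPS6, RPL27, RPS23, RPS12, RPL37A, RPS10, RPL37, RPL31, RPS21, RPS16, RPLP1, RPS4X and RPL9. The other 5 were KLK2, the elongation factor gene EEF1A1, the nascent chain factor gene NACA, and COX1 and COX2, the mitochondrially encoded cytochrome c oxidase subunit genes. EEF1A1 gave 14021 and 15129, NACA 14031.5 and 15054, COX1 13931 and 15890.2 and COX2 13541 and 14912.5. Control array 2 was the higher for 16 of these 20 genes, and RPS10, with 14828.5 and 14274, was among the other 4.

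Among the 100 highest genes, 48 were members of the cytosolic ribosomal protein list and 8 of the translation factor list. Signals in this range are compressed: from KLK2 to AIDA, the gene at rank 100 with 8293 and 8498, they spanned 1.99-fold. SOD1, the cytosolic superoxide dismutase gene at rank 101, had 7925 and 8759.7, and these neighbours do not differ beyond their spread. Of the 100 highest, 26 were read by probe sets of the _x_at type, which can bind related transcripts, against 5.38% of all genes. Outside the ribosomal, translation, cytoskeleton, glycolysis and chaperone lists, the 10 highest were KLK2, COX1, COX2, MALAT1, HUWE1, PABPC3, FAU, UBB, NAP1L1 and NDRG1. MALAT1, a nuclear long non-coding RNA, had 12561 and 14623. UBB, a polyubiquitin gene, had 11557.5 and 12172, and NDRG1, an androgen- and stress-responsive gene, had 10962 and 11373. The HUWE1 and PABPC3 signals came from _x_at probe sets, 13519.6 and 12914, and the other HUWE1 probe sets did not pass 403, so which transcript they read was not tested. The FAU transcript encodes a ubiquitin-like protein fused to a ribosomal protein and had 12587 and 13092.

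The arrays agreed closely for bright genes. Over the genes that entered the knockdown fit, they correlated at 0.988 on the log2 scale (across genes, which are not independent replicates). Differences between arrays are given on the log2(signal + 16) scale, which understates those of dim genes. Among the 11321 genes above background, the median absolute difference was 0.20 and the 95th percentile was 1.51-fold. For genes with a mean signal up to 100 the 95th percentile was 1.60-fold, and for genes over 5000 it was 1.23-fold. Array 2 was higher by a median of 0.15 over genes above background. Only 30 of 11321 genes (0.265%) were over 2-fold apart, 27 higher on array 2 and 3 on array 1; a common trimmed mean left 18.

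The largest differences towards array 2 were in MPZL3, an epidermal adhesion gene (156 and 453), SMARCD1, a subunit of the SWI/SNF remodelling complex (32.2 and 115), HOXC4 (52.8 and 149), ZDHHC8, a palmitoyltransferase gene (36.7 and 109), and PPP1R12C (31.5 and 96.6). For these 5 genes all 4 siRNA arrays lay above control array 1, with SMARCD1 at 106 and 88.8 with siRNA A and 89.7 and 109 with siRNA B. Towards array 1 they were in SPN, a leukocyte sialoglycoprotein gene read by an _x_at probe set (93.9 and 29.9), DSC1, a desmosomal cadherin gene (192.5 and 72.9), ESRRG, an orphan nuclear receptor gene (332 and 144), TNFSF15 (847 and 427) and SLC4A8 (144 and 66.8). ESRRG was at 91.8 and 18.4 with siRNA A and 51.5 and 12.6 with siRNA B, so both control arrays lay above all 4 siRNA arrays.

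**Figure D1:**
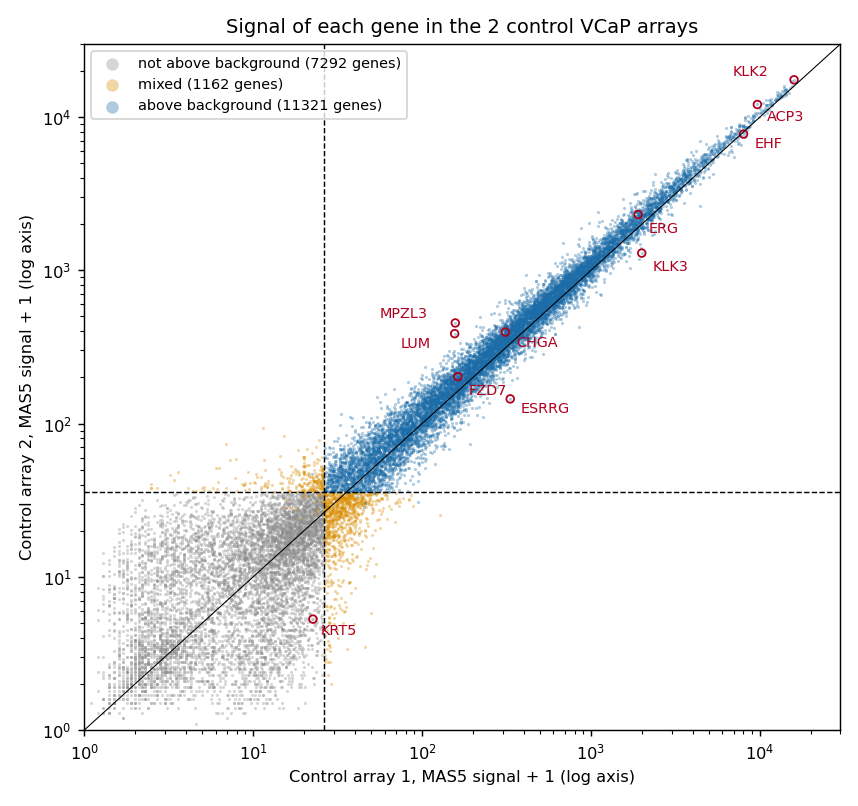
Each point is 1 of 19775 genes, placed by its MAS5 signal + 1 on control array 1 (x axis, log) and control array 2 (y axis, log); dashed lines mark the background level of each array, the solid line marks equal signals, and colour gives the class. Bright genes such as KLK2, ACP3 and EHF sit close to the line of equal signals, MPZL3 and LUM lie above it, KLK3 and ESRRG below it, and KRT5 sits inside the field of genes not above background.

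Housekeeping lists set the upper end of the range. In the ribosomal protein list 56 of 59 measured genes were above background (94.9%, against 57.2% of all genes). The median signal was 12126.5 against 63.0 over all genes. The members at the low end were RPL27A, RPL10L and RPLP2, and RPL36A, RPL3L and RPL39L were not above background. RPL10L, RPL3L and RPL39L are paralogs known from testis or muscle, while RPL36A, RPL27A and RPLP2 are part of every ribosome. RPLP2 gave 40.3 and 76 and RPL36A 16.5 and 6.0. The dim signals of the latter therefore stand beside 48 members among the 100 highest, and whether the probe sets read the transcripts was not tested. Of 15 translation factors 14 were above background, of 14 glycolysis enzymes all 14, of 15 cytoskeletal genes all 15, and of 18 chaperone and redox genes 17. Without _s_at and _x_at probe sets, which removes many members altogether, these counts were 26 ribosomal, 8 translation, 6 glycolysis and 6 cytoskeletal genes.

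The metabolic and folding genes showed the spread within a pathway. LDHA, lactate dehydrogenase A, had 10997 and 10579, and GAPDH had 10167 and 10695. PKM, pyruvate kinase, had 323 and 283, and PFKL, liver phosphofructokinase, 140.1 and 127. HSPD1, the mitochondrial chaperonin, had 10852 and 13021. HSPA5, the main endoplasmic reticulum chaperone BiP, had 4399.7 and 7035, and HSPB1 was mixed at 39.2 and 7.4. Chaperone and redox genes were higher on array 2 by a median of 0.34 on the log2 scale, with members from -1.24 (HSPB1) to 0.68 (HSPA5). The median was 0.11 for all genes, 0.15 for genes above background and -0.09 for glycolysis enzymes, and these differences were not tested.

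Prostate luminal lineage genes were mostly present and often bright. Of 27 measured members 22 were above background, and 15 were over 1000. The share above background was 81.5%, against 57.2% of all genes and 72.1% of genes with several probe sets. ACP3, prostatic acid phosphatase, had 9668 and 12084 on arrays 1 and 2. PRAC1, a small nuclear protein gene of prostate and distal colon, had 9162 and 9373, and TRPM8, a cold-sensing cation channel, 6106 and 5748. Both arrays were high for all 3 genes, and array 2 was clearly the higher for ACP3 alone. The lineage transcription factors were all above background. GATA2, which opens chromatin for the androgen receptor, had 4903 and 6177. The pioneer factor FOXA1 had 1634 and 2079.9, HOXB13 had 1277.5 and 1776 and the luminal ETS factor SPDEF 1221 and 1087. Every probe set of these 4 genes was above background.

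Surface and secreted prostate proteins spanned a wide range of signals. The metalloreductase genes STEAP1 and STEAP2 had 4687 and 5755 and 2396.5 and 2859, respectively. AGR2, a disulfide isomerase of secretory cells, had 3254 and 4296. NPY, neuropeptide Y, had 1857 and 3132, and array 2 was well above array 1. KLK3 had 1998 and 1295 (mean 1646 ± 497, SD, n = 2), with the lower signal on array 2. Its second probe set gave 1515 and 1038 with the same direction, and the remaining one 85.3 and 86.8. TMPRSS2, the serine protease gene that supplies the promoter of the fusion, had 1401 and 1317. Hepsin (HPN) had 480.1 and 496, and SLC45A3, prostein, had 317 and 338.

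Several clinical antigens were dim or not detected in the probe sets used here. Probe sets with several gene symbols were left out, so some genes may be read by only part of their sets. FOLH1, which encodes prostate-specific membrane antigen, had 102 and 141 in its only single-symbol probe set. KLK4 had 81.1 and 94.7 with 1 of 5 probe sets above background. TGM4, the prostate transglutaminase, was just above background at 32.8 and 45.2. AMACR, a racemase used as a tissue marker of prostate cancer, was mixed at 24.7 and 39.6. Of its 3 single-symbol probe sets 0 were above background on both arrays. MSMB, beta-microseminoprotein, had 18.4 and 18.7, PSCA 15.4 and 16.1, AZGP1 10.9 and 17.9 and the non-coding RNA PCA3 15.5 and 13.6. These 4 genes were not above background on either array, which on this platform bounds the signal and does not show that the RNA is absent.

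The cells carried luminal epithelial markers. In that list 16 of 18 measured genes were above background (88.9%, against 57.2% of all genes), and 9 without _s_at and _x_at probe sets. EPCAM, the epithelial adhesion molecule, had 6488 and 7350, E-cadherin (CDH1) 5451 and 5533, and the luminal keratins KRT18 2915 and 3196 and KRT8 600.2 and 569. ESRP1, an epithelial splicing regulator, differed between the arrays at 1118 and 2079.7, and GRHL2 did not at 1537 and 1596. MUC1 was dim at 29.6 and 43.6, KRT7 was mixed and KRT20, an intestinal keratin, was not above background. Of 12 basal markers 4 were above background (33.3%): the integrin ITGA6 (1765 and 1925), CD44 (399.6 and 307), BCL2 (43.9 and 47.7) and the laminin gene LAMB3 (40.1 and 38.1). With background at the 99th percentile only ITGA6 and CD44 stayed above it. The basal keratins were not, with KRT5 at 21.6 and 4.3, KRT14 at 22.1 and 27.3 and KRT15 at 9.8 and 1.3. ITGB4, TRIM29, S100A2, DSG3 and NGFR were also not above background.

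Some neuroendocrine genes were measured in this luminal background. Of 19 members 11 were above background, a share of 57.9% and near the 57.2% of all genes, and none was over 1000. CHGB, chromogranin B, had 541 and 699.9, chromogranin A (CHGA) 310.2 and 394.5, and the granin SCG3 416 and 454. The transcription factor INSM1 had 301 and 339 and DDC, the aromatic amino acid decarboxylase, 208 and 331. The Notch ligand DLL3 had 141 and 128.5. Granin signals were thus above background on both arrays, each with the higher value on array 2. Synaptophysin (SYP) was mixed at 27.1 and 27.4, SYT1 and FOXA2 were mixed, and GRP, CALCA, NTS, SCN3A and POU3F2 were not above background. SRRM4, a neural splicing factor, was dim at 51.4 and 53.6 with 1 of 3 probe sets above background.

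Markers of blood and vessel cells were at or near background, while some fibroblast markers were above it. None of 10 leukocyte markers was above background on both arrays, and PTPRC, the pan-leukocyte gene CD45, gave 1.2 and 23. Of 8 endothelial markers 1 was, PECAM1 at 40.3 and 36.7, while CDH5 gave 1.2 and 2.5. Of 4 erythroid markers 1 was, HBB at 29.2 and 51.6. The PECAM1 and HBB calls ended with background at the 99th percentile. Of 12 fibroblast markers 4 were above background (33.3%, against 57.2% of all genes): LUM, COL1A1 (135 and 115), ACTA2 (116.3 and 89.3) and FBLN1 (38.4 and 39.8). VIM, vimentin, gave 15.5 and 33.3 with neither of its probe sets above background, and COL1A2, COL3A1, DCN and PDGFRB were also not. LUM, the extracellular matrix proteoglycan lumican, had 155 and 385 in the controls and 262 and 662 with siRNA A and 702 and 2019 with siRNA B. In a bulk RNA sample, fewer cells of a type and less RNA per cell cannot be told apart.

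**Figure D2:**
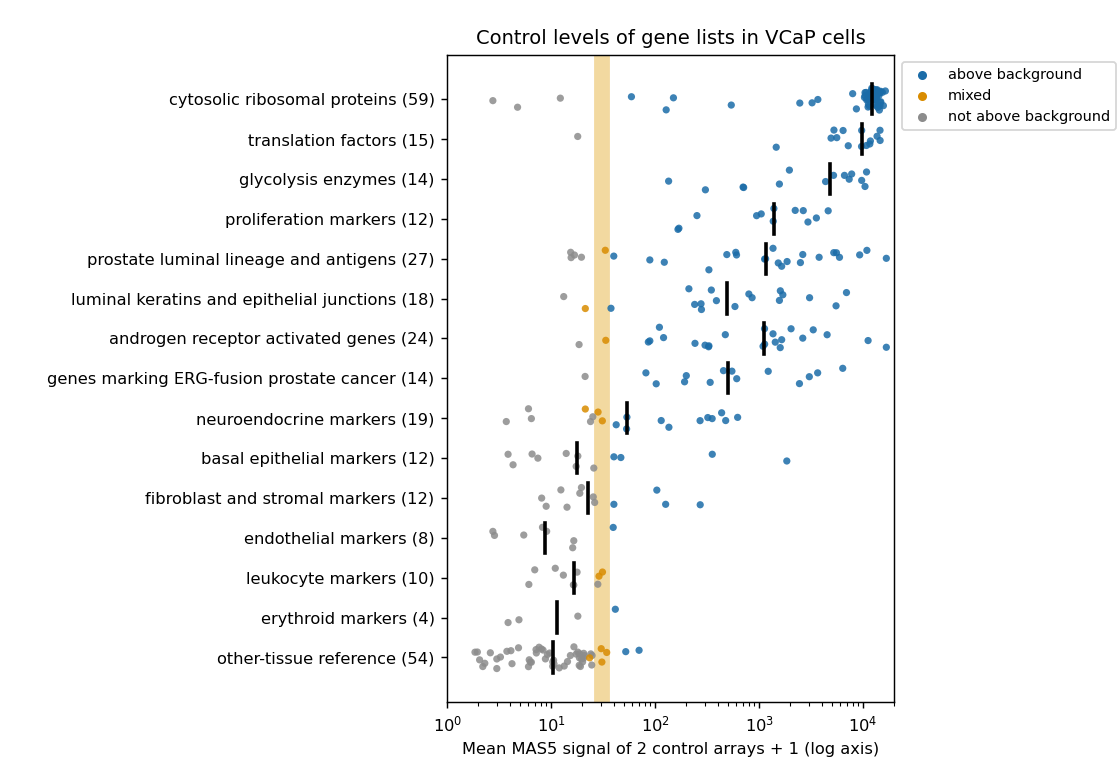
Each point is 1 gene, placed by its mean MAS5 signal + 1 over the 2 control arrays (x axis, log) in the row of its list, with the number of measured genes in brackets; black bars are list medians, the shaded band spans the background levels of the 2 arrays and colour gives the class. Ribosomal protein genes crowd the right edge with a median of 12126.5, the lineage, luminal and androgen receptor activated lists lie mostly above the band, and the leukocyte and endothelial lists lie mostly at or left of it; the place of the other-tissue list is fixed, since it sets the band.

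The proliferation and oncogene lists were almost wholly above background, against 57.2% of all genes. All 12 proliferation markers were, from the replication clamp PCNA at 3872 and 5355 to MKI67, the gene of the Ki-67 antigen, at 159 and 171. The topoisomerase TOP2A had 3490.4 and 3613 and the replicative helicase subunit MCM2 676 and 1213, higher on array 2. In the list of prostate cancer oncogenes and tumour suppressors 12 of 13 measured genes were above background. MYC had 6618 and 7730.1, cyclin D1 (CCND1) 2209 and 2159, and the ubiquitin ligase adaptor SPOP 1051 and 1323. RB1, the retinoblastoma gene, had 767 and 980.4, and EZH2, the Polycomb methyltransferase, 303 and 364. MYCN was mixed at 31.2 and 23.4, with 0 of 10 probe sets above background on both arrays.

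ERG itself was present in every probe set. The brightest set gave 1901 and 2312 (mean 2107 ± 291, SD, n = 2), and the other 3 gave 1269.5 and 1524, 225 and 249.5, and 155.5 and 192. Array 2 was the higher in all 4 sets. Of 27 measured ETS genes 19 were above background (70.4%, against 57.2% of all genes and 72.1% of genes with several probe sets). EHF, an epithelial ETS factor, had 8000.4 and 7751 with 6 of 6 probe sets above background, and SPDEF had all 5. GABPA, the DNA-binding subunit of GABP, had 926 and 1063, and ELF1 968 and 782. The epithelial factors ELF3 and ELF5 had 285 and 274 and 292 and 254, respectively. The ternary complex factors ELK4, ELK3 and ELK1, partners of SRF, had 521 and 636, 395 and 557 and 171 and 211 in that order. ETS1 had 81.7 and 77.5 and ETS2 161 and 131.

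ETV1, ETV4, ETV5 and FLI1, also known as fusion partners in prostate cancer, were low. ETV1 was mixed at 21.2 and 38.4, with 0 of 5 probe sets above background on both arrays. ETV4 had 21.8 and 3.9, ETV5 25.1 and 15.7 and FLI1 9.7 and 22, and none of their 13 probe sets was above background on either array. The haematopoietic factors SPI1, SPIB and SPIC and the neuronal factor FEV were also not above background, with SPI1 at 8.9 and 2.0. ETV2, ELF4 and ETV7 were above background by little, with ETV2 at 31.6 and 50.1. Under the alternative settings between 14 and 20 ETS genes were above background, the fewest without _s_at and _x_at probe sets.

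Genes that mark ERG-fusion tumours were present alongside ERG. Of 14 measured members 13 were above background (92.9%, against 57.2% of all genes), with a median signal of 499.8. CRISP3, a secreted cysteine-rich protein, had 5980.4 and 6759. PLA1A, a phospholipase, had 3217 and 4093, and PLA2G7, which inactivates platelet-activating factor, 1339 and 1105. The deacetylase HDAC1 had 2784 and 3292. Both arrays were well above background for each of these, with PLA2G7 the lower on array 2. TDRD1, a tudor-domain gene of the germline, had 506 and 587, the potassium channel gene KCNS3 322 and 353 and the class II antigen-loading gene HLA-DMB 545 and 671. At the low end were KCNH8 (99.6 and 103) and the calcium channel gene CACNA1D (65.1 and 95.9). ADGRF5, an adhesion receptor gene, was not above background at 22.4 and 18. The list was drawn up with knowledge of such tumours and of earlier results of these arrays.

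In the androgen axis, the androgen receptor gene itself was not analysed here. Of the 5 other steroid receptors measured 4 were above background (80%, against 57.2% of all genes), and with background at the 99th percentile 2. The glucocorticoid receptor gene NR3C1 had 148 and 169, the mineralocorticoid receptor gene NR3C2 78.1 and 68.5 and the progesterone receptor gene PGR 61.8 and 53.9. The estrogen receptor gene ESR1 was above background by little, at 27.4 and 48.5 with 1 of 9 probe sets, and ESR2 was not at 15.2 and 8.0. Chaperones and coregulators of the receptor were above background in 14 of 15 cases (93.3%). HSP90AA1 and HSP90AB1, the cytosolic HSP90 genes, had 7512 and 9064 and 6795 and 7189, respectively. The p23 cochaperone PTGES3 had 6577 and 7387, the coactivator NCOA2 1845 and 2385 and the Mediator subunit MED1 842 and 994. TGFB1I1, a focal adhesion coactivator, was not above background at 1.8 and 3.2.

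Androgen receptor activated genes were above background in 22 of 24 cases (91.7%, against 57.2% of all genes), with a median signal of 1108. After KLK2 and NDRG1 came PMEPA1, a membrane protein that limits TGF-beta signalling, with 3687 and 5326. The zinc finger gene ZBTB10 had 3069 and 3558, the elongation factor ELL2 1789 and 2267 and the co-chaperone FKBP5 1534 and 1655.5. The transporter gene ABCC4 had 1488.5 and 1369. CAMKK2, a calcium-dependent kinase, had 683 and 1496, so the arrays were further apart for it than for the genes just named. ZBTB16, a transcriptional repressor, had 299 and 302.5 and TIPARP, an ADP-ribosyltransferase, 103 and 115. NNMT was mixed and GNMT was not above background, with 38.3 and 26.7 and 19.8 and 15.3. KLK3 and TMPRSS2, described with the lineage genes, belong to this list too.

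Enzymes that make androgens from cholesterol were mostly not above background, while several that act on circulating precursors were. Of 18 synthesis and activation genes 7 were above background (38.9%, against 57.2% of all genes). The cholesterol transporter STAR gave 3.1 and 1.7, the side-chain cleavage enzyme CYP11A1 13.2 and 9.5 and the 17,20-lyase CYP17A1 8.1 and 16.1. All 3 were below the background level on both arrays. AKR1C3, which reduces androstenedione to testosterone, had 1342.5 and 1398.5, and HSD17B6, which can form dihydrotestosterone from androstanediol, 1305 and 1073. The steroid 5-alpha-reductase genes differed in class, SRD5A1 being above background at 434 and 489 and SRD5A2 not at 2.5 and 3.4. Steroid sulfatase (STS) was dim at 47.9 and 62, and HSD3B1, which converts dehydroepiandrosterone, was mixed at 35.8 and 30.2. The cofactor CYB5A had 3509.7 and 3623. The aromatase gene CYP19A1 was not above background in any of 7 probe sets.

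Of 14 androgen inactivation genes 8 were above background (57.1%, the share of all genes being 57.2%), and 4 without _s_at and _x_at probe sets. HSD17B4 had 1843 and 1974 and HSD17B11 1600.2 and 1696. The glucuronosyltransferases that conjugate androgens were lower, UGT2B15 at 329 and 481, UGT2B28 at 68.1 and 50 and UGT2B17 at 29.3 and 38.8. UGT2B4 was not above background at 23.5 and 27. These genes are near-identical copies, as are AKR1C1, AKR1C2 and AKR1C3, and their probe sets may share signal. The estrogen and steroid sulfotransferases SULT1E1 and SULT2A1 were not above background.

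**Figure D3:**
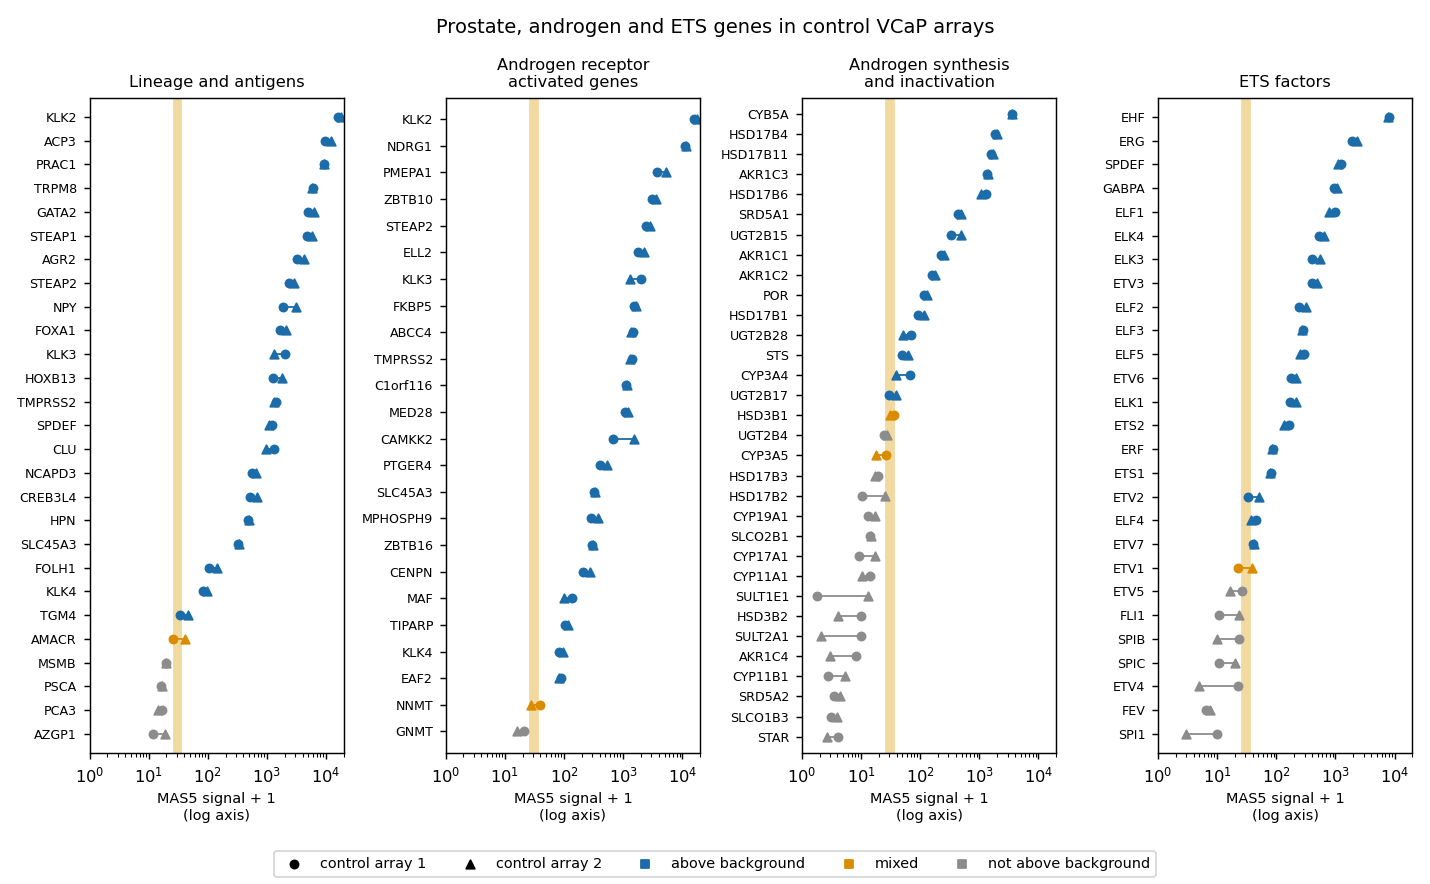
Each row is 1 gene and shows its MAS5 signal + 1 on control array 1 (circle) and control array 2 (triangle) on a log x axis, in panels for lineage genes, androgen receptor activated genes, androgen enzymes and ETS factors; the shaded band spans the background levels of the 2 arrays and colour gives the class. In the ETS panel EHF and ERG are at the top with ETV1, ETV4, ETV5 and FLI1 at or left of the band, and in the enzyme panel STAR, SRD5A2 and CYP17A1 lie left of it.

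Few WNT ligands were above background. Of 17 measured ligand genes 4 were (23.5%), and 2 with background at the 99th percentile, against 57.2% of all genes. WNT2 had 370.2 and 473 and WNT5A, a ligand of non-canonical signalling, 137 and 186. WNT10B had 71.6 and 36.1 and WNT6 33.2 and 49, both close to the background level. WNT16, WNT4 and WNT9A were mixed, and 10 ligands were not above background, among them WNT1 with 1.4 and 2.8 and WNT7B with 10.3 and 2.9. WLS, which carries WNT ligands to the cell surface, had 257 and 350.3.

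On the receiving side 17 of 25 receptor, R-spondin and secretion genes were above background (68.0%, against 57.2% of all genes). Among all genes with several probe sets the share was 72.1%. Without _s_at and _x_at probe sets the count on the receiving side was 11. RYK, a receptor-like kinase that binds WNT, had 1575 and 1977, and FZD4 1117 and 1380.1. LGR4, a receptor for R-spondins, had 1139 and 1508, with 1 of its 3 probe sets above background. Other Frizzled genes above background were FZD6 (658 and 618), FZD3 (556 and 633), FZD5 (517 and 615), FZD7 (162 and 201.5), FZD2 (130.3 and 136), FZD1 (129 and 134) and FZD10 (75.8 and 89). FZD9 was not. Both coreceptor genes were above background, LRP6 at 482 and 542 and LRP5 at 55.6 and 47.2. The ubiquitin ligase genes ZNRF3 and RNF43, which remove Frizzled receptors, had 282 and 339 and 153 and 176. None of the 4 measured R-spondin genes was above background on both arrays, and neither were LGR5 and LGR6. The receptor tyrosine kinase ROR1 had 154 and 215, and ROR2 was at 2.9 and 3.0.

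Of 16 secreted WNT antagonists and their partners 7 were above background (43.8%, against 57.2% of all genes), and 4 with background at the 99th percentile. SOSTDC1, which binds LRP coreceptors, had 401 and 467.5. KREMEN1, a receptor for DKK proteins, had 271 and 206, WIF1 193 and 169.7 and SFRP1 172 and 156. DKK3 was dim at 59.3 and 39. DKK1, a direct WNT target gene in many cells, was not above background at 8.9 and 19.2, and neither were DKK2, DKK4, SFRP2, SFRP4, SFRP5, FRZB, NOTUM and SOST.

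Most measured genes of the pathway inside the cell were above background. Of 21 transduction genes 18 were (85.7%, against 57.2% of all genes). Of 12 measured genes of the TCF/LEF complex 11 were (91.7%), and 1 more had no probe set of its own. Some of those above background were dim, with BCL9L at 51.5 and 53.3 and TLE4 at 42.1 and 41. CTNNB1, beta-catenin, had 4019.5 and 4899, and CSNK1A1, its priming kinase, 3450.1 and 3546.5. GSK3B had 964 and 934 and APC, the scaffold of the destruction complex, 193 and 218. Of the Dishevelled genes DVL1 had 469.9 and 524, DVL2 151 and 189.7 and DVL3 146.5 and 182. AXIN1 had 46.6 and 57.3 and AXIN2, a feedback target of the pathway, 62.3 and 98.1. AMER1, a partner of APC, and NKD1, an inhibitor of Dishevelled, were not above background at 6.8 and 8.5 and 10.9 and 22.6. LEF1 had 1998 and 1964 with all 3 probe sets above background, and TCF7L2 had 989 and 966 with 6 of 7. TCF7L1 was not above background at 19.3 and 16.2. The Groucho corepressor genes TLE1 and TLE3 had 407 and 436 and 518 and 552, respectively.

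**Figure D4:**
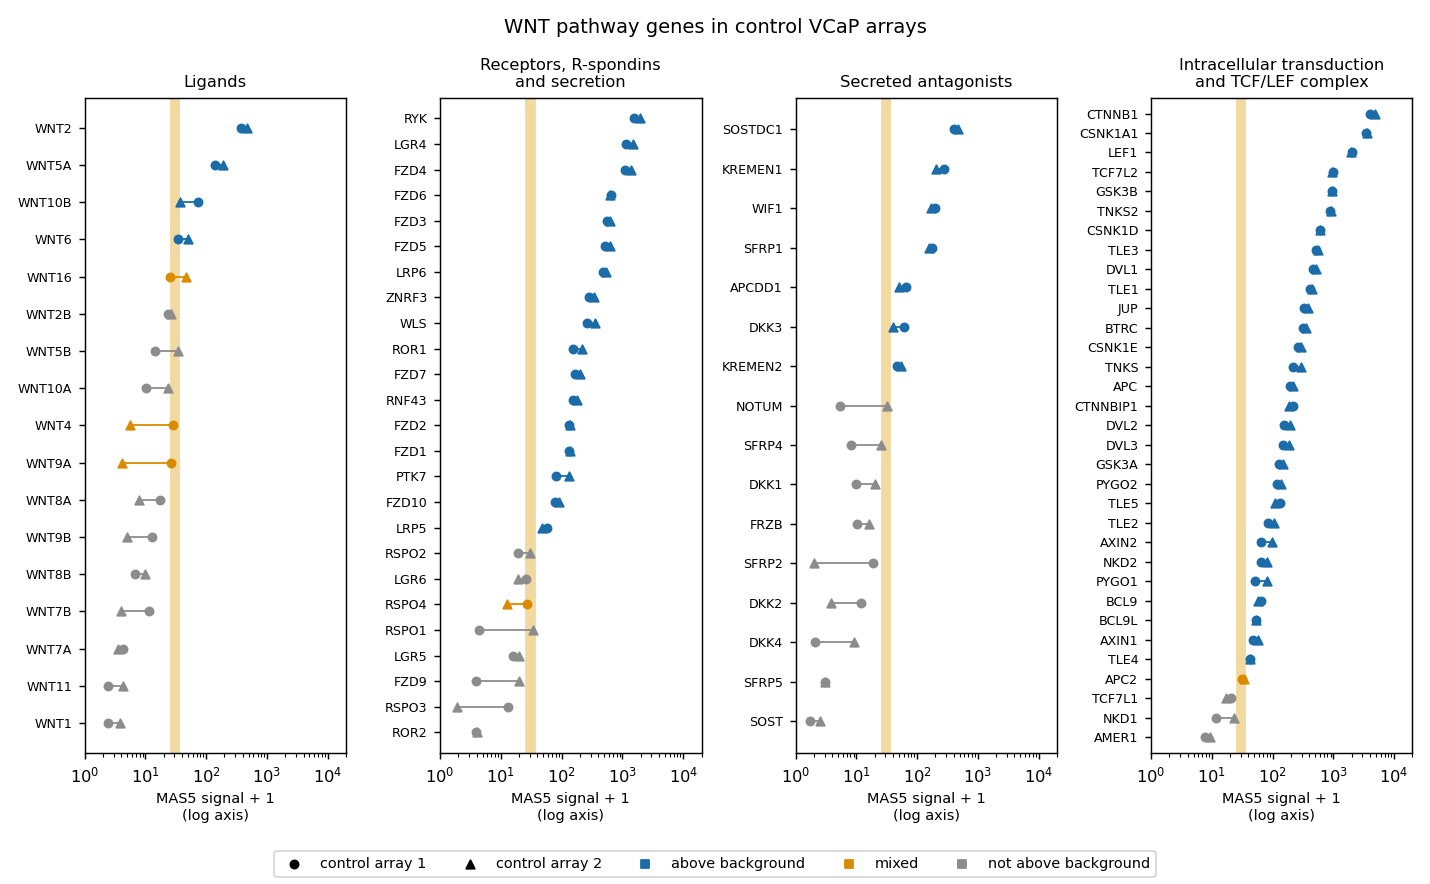
Each row is 1 WNT pathway gene with its MAS5 signal + 1 on control array 1 (circle) and control array 2 (triangle) on a log x axis, in panels for ligands, receptors, secreted antagonists and intracellular genes; the shaded band spans the background levels of the 2 arrays and colour gives the class. The intracellular panel lies mostly right of the band and the ligand panel mostly at or left of it, with WNT2 and WNT5A as the ligands clearly to its right.

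In the SOX family 8 of 19 genes were above background (42.1%, against 57.2% of all genes), and 5 with background at the 99th percentile. SOX4, a factor of progenitor and tumour cells, had 5664 and 5541 with 4 of 6 probe sets above background. SOX9, the gene targeted in the other groups, had 1558 and 1269.6 in 1 probe set and 1469 and 1126 in the other. Array 2 was the lower in both. SOX12 had 278 and 267 and SOX7 342 and 191. SOX2 was mixed at 29.1 and 14.7, and SOX10, SOX17 and SOX18 were not above background.

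Most of this baseline kept its class after SOX9 siRNA. Of the 11321 genes above background in the controls, 10427 (92.1%) were above it on all 6 arrays. Only 38 (0.336%) were above background on both control arrays and on none of the 4 siRNA arrays, all of them dim. The largest differences among these were in TRIM54, INTS4P1, SERPINA3, FCHO1 and UCN, with TRIM54, a muscle ubiquitin ligase gene, at 49.1 and 37.8 in the controls and 14.5 and 1.6 with siRNA A and 6.5 and 1.3 with siRNA B. SERPINA3, alpha-1-antichymotrypsin, had 28.3 and 36.8 in the controls. In the other direction, 12 of 7292 genes (0.165%) were below background on both controls and above it on all 4 siRNA arrays. The largest differences were in UGT2B4, ZNF76, MS4A8, ZDHHC19 and IL4R, with UGT2B4 at 48.4 and 47.1 with siRNA A and 115 and 199 with siRNA B.

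In the limma fit of both siRNAs against control, 5 of 12431 tested genes (0.0402%) passed a Benjamini-Hochberg adjusted p below 0.05. HMGN2P46, SLC30A4 and COXFA4L3 were higher with the siRNAs, and NPY6R and FZD7 lower. All 5 calls were lost when arrays were scaled by quantiles, by medians or by trimmed means, with no filter on dim genes, and without replicate 2 of siRNA A or of siRNA B, each of which left 0. At an unadjusted p below 0.05 the reported fit had 965 genes, and these settings had 387 to 1225. FZD7, at 162 and 201.5 in the controls, was the only member of the lineage, ETS, SOX, androgen and WNT lists among them, with a log2 difference of -1.83 (SE 0.29, limma adjusted p = 0.0325). In a fit blocked on replicate number, which takes same-numbered arrays as pairs, 440 genes (3.54%) passed. Same-numbered arrays deviated together at r = 0.63 between siRNA A and siRNA B but only 0.18 between each siRNA and control. The pairing of the control arrays is thus weakly borne out. Among the 24 tested lineage genes 6 passed with the block: AMACR, NPY, PRAC1, SLC45A3, STEAP1 and STEAP2. PRAC1 was lower with the siRNAs (log2 difference -0.76, SE 0.23), with a limma adjusted p of 0.459 without the block and 0.00038 with it. The other 5 were higher, NPY by 1.06 (SE 0.33). Each SE given for a knockdown difference is that of the fit without the block.

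Androgen inactivation genes had 4 members of 9 tested that passed with the block, against 3.54% of all tested genes. All were UGT2B genes, near-identical copies that may share signal, and higher in the mean of both siRNAs. UGT2B15 was at 442 and 464 with siRNA A, within its control values of 329 and 481, and at 1289 and 1968 with siRNA B. UGT2B17, at 29.3 and 38.8 in the controls, was at 48.6 and 71.9 with siRNA A and 149 and 343 with siRNA B, a log2 difference of 1.44 (SE 0.30, limma adjusted p = 0.131 without the block and 6.87e-07 with it). STS was higher by 1.17 (SE 0.43, limma adjusted p = 0.531 and 9.4e-05), mainly on replicate 2. Its signals were 47.9 and 62 in the controls, 84.2 and 251.7 with siRNA A and 63 and 286.5 with siRNA B. In the WNT lists TLE4 and WNT5A were higher and DKK3 and TCF7L2 lower with the block, and in the ETS list ELK3 was lower. TLE4 too was higher mainly on replicate 2, at 51.3 and 214.9 with siRNA A and 46.9 and 188.3 with siRNA B. Its controls were at 42.1 and 41. For WNT5A all 4 siRNA arrays lay above both control arrays. In the SOX list SOX9, the siRNA target, differed by -1.02 (SE 0.29, limma adjusted p = 0.425 without the block and 0.00184 with it). The fit read SOX9 by the probe set with 1469 and 1126 in the controls. The other set, with 1558 and 1269.6, was at 861 and 586 with siRNA A and 570 and 293 with siRNA B. TCF7L2 differed by -0.81 (SE 0.33, limma adjusted p = 0.575 without the block and 0.032 with it). MYC differed by -0.78 (SE 0.26, limma adjusted p = 0.47 and 0.000804). Genes such as ERG, EHF, KLK2 and KLK3 passed in neither fit. The comparisons share the 2 control arrays, so an error in a control level enters each of them.

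Promoters of genes above background were richer in CG dinucleotides than those of genes not above it, a description with no test. In the RefSeq table of GRCh38.p14 a promoter was found for 9353 of the 11321 genes above background and 5200 of the 7292 genes not above it. Within 250 bases before the start, the median number of CG dinucleotides was 21 for the 100 highest genes, 20 for genes above background, 14 for mixed genes and 6 for genes not above background. The share with 10 or more was 88.3%, 79.4%, 61.1% and 39.8% in that order, against 52.2% of all 35116 promoters in the table. RPS19, printed above, is of the CG-rich kind. The 27 promoters of prostate lineage genes above background had a median of 4, and 37.0% had 10 or more. KLK2 and KLK3, also printed above, are among them.

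A pyrimidine start was common among ribosomal protein genes. In 58.6% of 58 promoters of ribosomal genes above background the first 5 transcribed bases were all C or T, the pattern of a terminal oligopyrimidine tract. Among the 100 highest genes outside the ribosomal protein list it was 20.4% (11 of 54 promoters). These genes still include FAU, whose transcript encodes a fused ribosomal protein. The share was 5.38% over genes above background, 3.92% over genes not above it and 5.17% over the whole table. The 6 letters CGGAAG, an ETS-type core searched on both strands in the same 250 bases, were in 60.3% of ribosomal promoters and 16.5% of the table. The share was 25.5% over genes above background and 3.7% over the lineage genes above it. TATAAA on either strand within 40 to 15 bases before the start, where KLK2 and KLK3 have it, was in 7.77% of the promoters of the 100 highest genes and 11.1% of those of lineage genes (3 of 27). It was in 1.84% for genes above background, 5.37% for genes not above it and 2.86% of the table. TGTTCT on either strand was in 8.33% of the promoters of androgen receptor activated genes above background (2 of 24) and in 8.15% for all genes above background, which is no difference to read. CGGAAG holds a CG dinucleotide, so its shares and the CG counts are not independent, and the absence of a motif from a window says nothing of more distant elements.

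**Figure D5:**
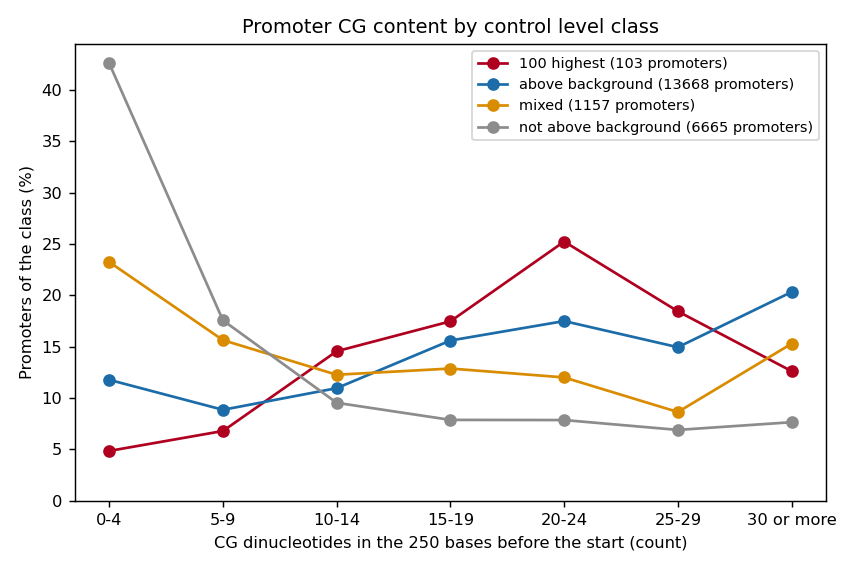
The plot gives the share of promoters in each class (y axis, %) by the number of CG dinucleotides in the 250 bases before the start (x axis, count), with 1 line for each control level class. Genes not above background peak at 0 to 4 CG dinucleotides (42.6%), where genes above background have 11.8% and the 100 highest have 4.85%.

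By chromosome the share of genes above background ran from 50.4% (chromosome 13, 202 of 401 genes) and 50.6% (X chromosome, 352 of 696) to 63.9% (chromosome 15, 391 of 612), over 19687 genes on chromosomes 1 to 22 and X. Chromosome 19 had 58.6% of 1320 genes above background but the lowest median signal among them, 146, and chromosome 21 the highest, 518 over 135 genes. The copy number of VCaP chromosomes was not analysed here.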

How the data were processed

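Total RNA (6 ug per sample) was labelled as biotin cRNA and hybridised to U133 Plus 2.0 arrays of Affymetrix, per the labels' protocols. The authors deposited 1 intensity per probe set on a linear scale, and the submitters' processing notes name MAS5, with version and scaling target not given in the sources used here. These signals were used as deposited. Of 54675 probe sets, 62 were controls, 41097 had 1 gene symbol in the platform annotation, 1801 several and 11777 none, and 41043 matched RefSeq by gene identifier. Probe sets with several symbols were left out, also for genes that kept other sets. Genes without a single-symbol probe set were not analysed here. Levels are descriptions of 2 arrays, so SD has n = 2.

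Differences used log2(signal + 16). The fit used limma 3.58.1 (lmFit, eBayes with trend) on all 6 arrays in 3 groups, for genes with a mean at or above the median of all probe sets, and was tested on simulated data. P-values measure the spread between these arrays, which may be technical. Same-numbered arrays deviated together, at r = 0.63 between siRNA A and siRNA B but 0.18 between each siRNA and control. Only the blocked fit, an alternative to the reported one, treated the numbers as pairs. This choice was made from the data and rests mainly on the siRNA groups. SOX9 signal was lower on replicate 2 than on replicate 1 in each group, and what the shared deviation reflects was not tested. With 2 arrays per group the blocked fit leaves each gene few residual degrees of freedom. Its p-values therefore lean on the spread that limma pools over genes.

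Named genes were the 20 highest and the 10 highest outside the housekeeping lists, list members, the 5 most different per direction between the controls, called genes, the first 5 genes of each class change, and the genes at ranks 100 and 101. Members, lists and rules were chosen with earlier results of these data known. Alternatives were other background levels, offsets, scalings, filters and probe set rules, the block, and leaving out each array.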

Additional observations from a re-analysis of the deposited data

How the results depend on the processing

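The counts of genes above and not above background stayed within 1.5 times their reported values under every background level, probe set rule, scaling and left-out control array tried (8817 to 12255 above, 6600 to 9087 not above). The count over 2-fold apart between the controls was 30, and it was 83 with an offset of 1, 7 with 64, 19 after quantile normalization, 18 at a common trimmed mean and 326 with no filter on dim genes. The knockdown count of 5 in the limma fit became 440 with the replicate block, which kept all 5. It was 9 with an offset of 64, 9 over genes above background in the controls, and 1 without the intensity trend (920 at an unadjusted p below 0.05). It was 0 after quantile normalization (1117 unadjusted), median centring (1004), a common trimmed mean (1082) and with no filter (1225). Leaving out 1 array gave 0 to 62 calls: 22 and 32 without control 1 and 2, 14 and 0 without replicate 1 and 2 of siRNA A, and 62 and 0 without those of siRNA B. The causes were not tested.

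Of 33 lists, the count of members above background moved by more than 1.5 times in 10 with background at the 99th percentile and in 11 without _s_at and _x_at probe sets, where fewer genes are measured. Of 622 gene levels, 7 moved by more than their SD at a common trimmed mean, 70 after quantile normalization and 304 when a gene's probe sets were summarised by their median and not by the brightest. Quantile normalization shifted the median of all genes by -0.02 on the log2 scale. Signal close to background and 2 arrays limit what can be said of dim genes.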

Other observations

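Gene lists drawn up after the control levels had been seen gave further values and no test. In the HOX list 9 of 28 measured genes were above background (32.1%, against 57.2% of all genes). The count was 5 with background at the 99th percentile or without _s_at and _x_at probe sets. HOXC6 had 3842 and 3699 on control arrays 1 and 2, HOXB13 1277.5 and 1776 and HOXD8 133 and 107, while the other 6 above background had means of at most 101. HOXC4 had 52.8 and 149. HOXC8, HOXC10, HOXC11, HOXC12 and HOXC13, of the same cluster as HOXC6, were not above background, and HOXD13 was mixed.

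Prostate luminal cells are known for zinc and polyamine metabolism. Among zinc transporters and metallothioneins 26 of 32 genes were above background (81.25%, against 57.2% of all genes), and 16 without _s_at and _x_at probe sets. The zinc importer SLC39A6 had 9122 and 10220.4, SLC39A14 930.4 and 1316 and the exporter SLC30A4 1394 and 2058.5. The metallothionein MT2A had 2610.4 and 2354 and MT1X 1901 and 1659, and these copies are similar enough to share signal. Of 16 polyamine genes 15 were above background (93.75%). AMD1, which supplies decarboxylated S-adenosylmethionine, had 9533 and 10368, the antizyme OAZ1 8459 and 8678, ornithine decarboxylase (ODC1) 3675 and 4219 and the acetyltransferase SAT1 2572 and 2441. ARG1, the liver arginase, was not above background at 9.5 and 6.1, whereas ARG2, the mitochondrial form, had 387 and 582.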
